A study of Mus musculus with 36 samples.

Results

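Slc6a13, Aebp1, Fbn1, Postn, Islr, Ptgds, Dcn, Igf2 and Serping1 are 9 genes that fibroblasts and the cells of the meninges, the membranes around the brain, are known to express. They were taken by symbol from a table of 31554 genes measured by RNA sequencing in 36 libraries, and each symbol named 1 row. The genes were chosen by their values in single NAc libraries and in the comparisons of SNI with sham in NAc and PAG, so those values are given below as a description. Model results that include the members in these comparisons stand beside those of all genes and are no test of the members. All mice were adult male C57BL/6 mice, and tissue was taken 2.5 months after surgery. The groups with spared nerve injury (SNI), in which branches of the sciatic nerve are cut and another is left intact, were NAc SNI, PFC SNI and PAG SNI. The groups with sham surgery were NAc sham, PFC sham and PAG sham. NAc is the nucleus accumbens, PFC the medial prefrontal cortex and PAG the periaqueductal grey, and each of the 6 groups had 6 libraries. Libraries were made from poly-A RNA of pooled samples, per the labels' protocols, and the labels do not tie a library to mice. The tests below therefore rest on the spread from library to library, some of which may be technical. Libraries are called by the number in their labels, 1 to 36.

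The meninges cover the surface of the brain and follow its vessels inward, and their fibroblasts secrete collagens, proteoglycans and elastic fibres. Leptomeningeal cells also carry transporters that move solutes between cerebrospinal fluid and blood. A brain region cut at the surface can carry some of these membranes, and vessels inside the tissue bring a few perivascular fibroblasts of their own.

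Slc6a13 encodes GAT2, a transporter of GABA and taurine. Ptgds encodes the prostaglandin D synthase of the brain, a secreted enzyme that also carries lipids and is made by leptomeningeal cells and oligodendrocytes. Igf2 is a growth factor of the insulin family, and Serping1 is the inhibitor of the first complement proteases C1r and C1s. The other members belong to the extracellular matrix. Fbn1 is fibrillin-1, the backbone of microfibrils, Dcn is decorin, a small leucine-rich proteoglycan that binds collagen, and Aebp1 is a secreted collagen-binding protein. Postn is periostin, a matrix protein of remodelling tissue, and Islr (meflin) is a leucine-rich repeat protein of mesenchymal cells.

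On build mm10 (GENCODE M21) Slc6a13 (ENSMUSG00000030108) lies on chromosome 6 from 121300227 to 121337733, plus strand. Aebp1 (ENSMUSG00000020473) is on chromosome 11 from 5861947 to 5872088, plus strand, and Dcn (ENSMUSG00000019929) on chromosome 10 from 97479609 to 97518143, plus strand. Postn (ENSMUSG00000027750) is on chromosome 3 from 54361109 to 54391037, plus strand. Fbn1 (ENSMUSG00000027204, 125300594 to 125507993), Ptgds (ENSMUSG00000015090, 25466709 to 25470046) and Serping1 (ENSMUSG00000023224, 84765387 to 84775444) are all on the minus strand of chromosome 2. Islr (ENSMUSG00000037206) is on chromosome 9 from 58156268 to 58204306, minus strand, and Igf2 (ENSMUSG00000048583) on chromosome 7 from 142650766 to 142666816, minus strand. All 9 are annotated as protein coding. Exons of Fbn1 overlap the predicted gene Gm9913 on the other strand, exons of Islr overlap Islr2 on the same strand, and exons of Igf2 overlap Gm49394 on the same strand and Igf2os on the other. The strand setting of the counting is not given in the sources used here, so the levels of Fbn1, Islr and Igf2 may hold reads of these neighbours. The members spanned 36.3% GC (Postn) and 37.4% (Dcn) to 58.3% (Aebp1) in their longest transcript.

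Promoters are shown for 3 of the members that varied together across NAc libraries (Slc6a13, Aebp1, Ptgds) and for the pair that followed them less there (Fbn1, Postn), so that the sequence can be read beside the pattern described below. Each is a window of 250 bases before to 50 after a RefSeq start site on GRCm38.p6, printed 5′ to 3′ on the gene's strand, and capitals mark the motifs searched. RefSeq starts differ from the GENCODE gene bounds given above. Slc6a13 is chr6:121300038-121300337 (plus), Aebp1 chr11:5861616-5861915 (plus), Ptgds chr2:25469700-25469999 (minus), Fbn1 chr2:125506389-125506688 (minus) and Postn chr3:54360857-54361156 (plus).
Slc6a13: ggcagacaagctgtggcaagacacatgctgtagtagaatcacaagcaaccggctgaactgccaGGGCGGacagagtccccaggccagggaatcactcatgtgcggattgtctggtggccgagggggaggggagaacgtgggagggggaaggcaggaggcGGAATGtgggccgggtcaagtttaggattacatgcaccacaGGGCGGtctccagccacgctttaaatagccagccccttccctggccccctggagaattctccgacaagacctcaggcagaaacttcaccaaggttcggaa
Aebp1: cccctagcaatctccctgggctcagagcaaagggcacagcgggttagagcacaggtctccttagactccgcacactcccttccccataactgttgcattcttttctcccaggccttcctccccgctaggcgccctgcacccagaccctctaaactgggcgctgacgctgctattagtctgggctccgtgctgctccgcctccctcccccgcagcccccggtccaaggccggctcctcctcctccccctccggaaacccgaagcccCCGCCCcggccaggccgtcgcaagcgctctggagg
Ptgds: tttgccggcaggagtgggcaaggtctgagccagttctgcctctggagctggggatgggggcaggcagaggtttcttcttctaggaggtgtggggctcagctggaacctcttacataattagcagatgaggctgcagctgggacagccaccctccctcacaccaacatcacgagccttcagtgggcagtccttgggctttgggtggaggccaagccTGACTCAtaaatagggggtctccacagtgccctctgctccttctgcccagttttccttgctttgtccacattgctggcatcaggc
Fbn1: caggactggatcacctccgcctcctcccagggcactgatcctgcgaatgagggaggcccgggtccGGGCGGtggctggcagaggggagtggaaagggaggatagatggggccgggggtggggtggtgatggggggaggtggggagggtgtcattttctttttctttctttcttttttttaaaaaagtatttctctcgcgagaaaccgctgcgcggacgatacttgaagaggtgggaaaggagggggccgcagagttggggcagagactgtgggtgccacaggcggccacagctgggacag
Postn: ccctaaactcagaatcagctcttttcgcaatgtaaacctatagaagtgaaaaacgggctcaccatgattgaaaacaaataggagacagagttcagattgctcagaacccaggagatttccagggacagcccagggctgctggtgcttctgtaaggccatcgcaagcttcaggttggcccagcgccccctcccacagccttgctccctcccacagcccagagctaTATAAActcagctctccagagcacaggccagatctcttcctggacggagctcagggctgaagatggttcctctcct

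The RefSeq table matched 7 of the 9 members with 13 windows. Dcn and Serping1 had none. Motifs were searched on both strands. The GC box GGGCGG was in 5 of the 13 windows (Slc6a13, Aebp1, Fbn1 and a pair of Igf2), and in 35.7% of all 32851 windows. The TEAD motif GGAATG was in 4 of them, 1 of Slc6a13 and 3 of Igf2, and in 14.7% of all windows. The AP-1 motif TGANTCA was in 1 window, at position -35 from the start of Ptgds, and in 7.81% of all windows. The TATA box TATAAA was in 1 window, at -26 from this start of Postn, and in 13.6% of all windows. The forkhead motif TGTTTAC was in none of the 13 and in 3.65% of all windows. No motif of the 5 was in all 3 printed promoters of members that varied together in NAc (Slc6a13, Aebp1, Ptgds). Igf2 and Islr varied with them too, and the window of Islr had none of the 5.

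Depth was 27.6 to 64.9 M (mega) assigned reads per library, recovered from the deposited RPKM, a read count scaled to gene length in kilobases and to M assigned reads. Each library carried markers of its labelled region. Drd2, the dopamine D2 receptor gene, had 73.5 to 112 RPKM in NAc libraries, against 0.854 to 6.65 in PFC and 13.2 to 16.8 in PAG. Slc17a7, a transporter of cortical glutamatergic neurons, had 414 to 543 RPKM in PFC libraries, and Tph2, an enzyme of serotonin synthesis, 52.7 to 186 in PAG. The NAc libraries were uneven in Slc17a7, from 1.59 to 178 RPKM. The fewest reads of a member in a library were 48 (Postn) and the most 68043 (Ptgds). Defining genes of fibroblasts outside the list were also detected, with Col1a1 (collagen I) at 0.249 to 1.75 RPKM and Foxc1, a transcription factor of the meninges, at 0.442 to 1.51 RPKM in NAc libraries.

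**Figure D1:**
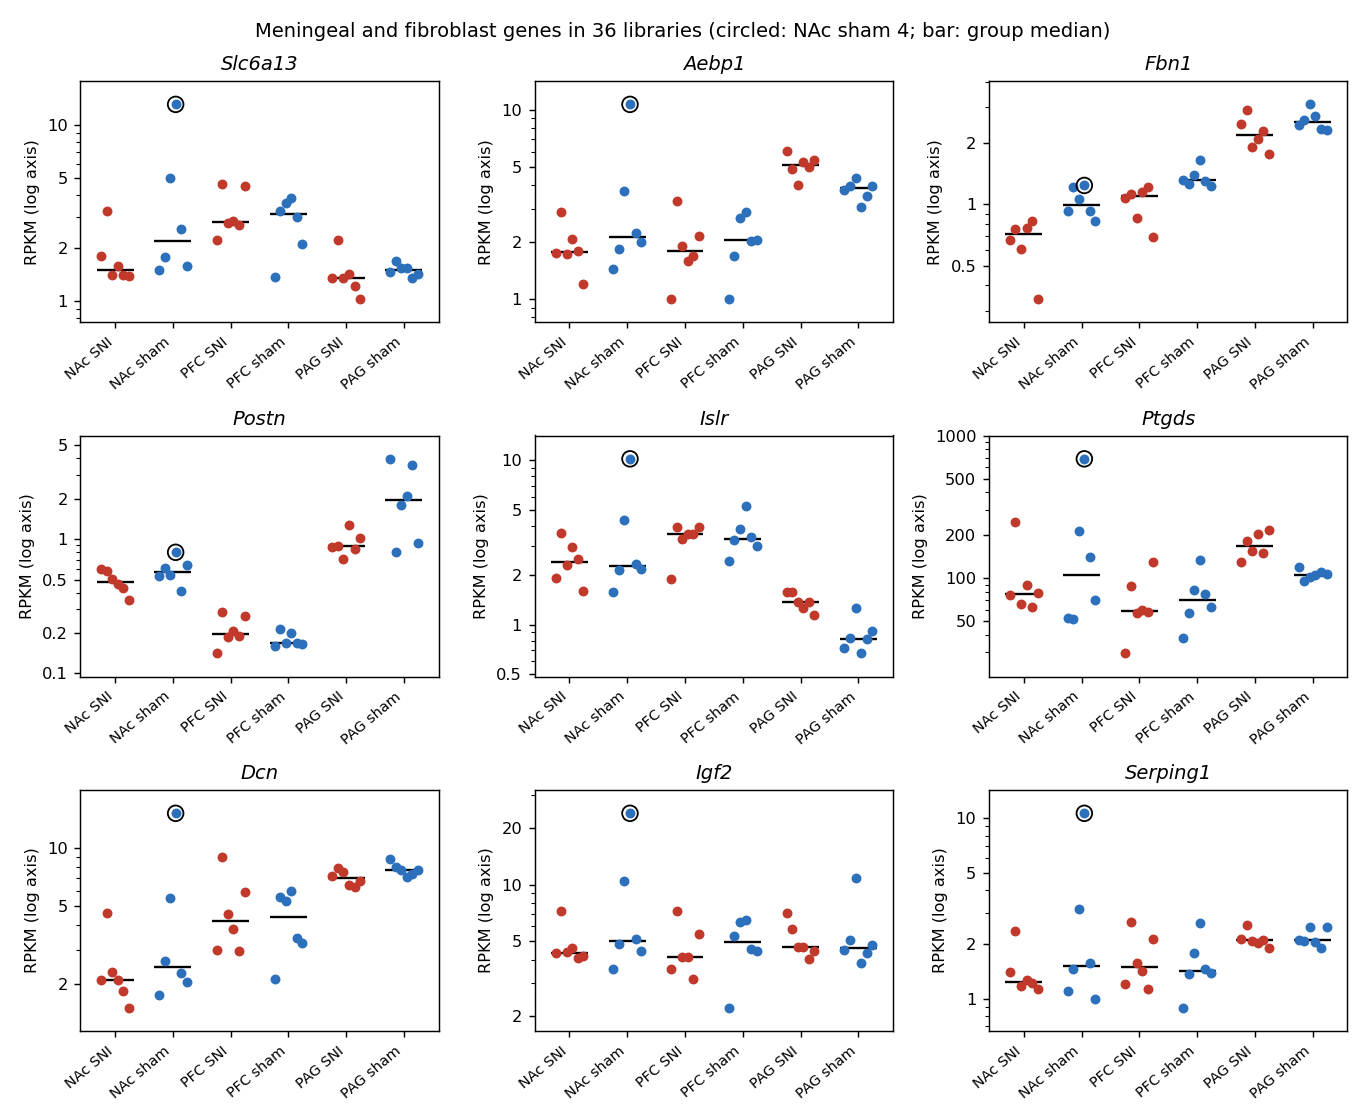
RPKM of the 9 genes in each of the 36 libraries on log axes, with SNI in red and sham in blue, horizontal bars at the group medians and NAc sham 4 circled. NAc sham 4 is the highest of the 12 NAc libraries for each gene, by 9.04-fold over the median of the other 11 for Ptgds and by 1.49-fold for Fbn1.

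In NAc the levels of 7 members turned on a single library, NAc sham 4. Slc6a13 had 1.79, 3.23, 1.41, 1.59, 1.40 and 1.40 RPKM in NAc SNI libraries 7 to 12, against 1.51, 1.79, 4.98, 13.1, 2.58 and 1.59 RPKM in NAc sham libraries 1 to 6. NAc sham 4 stood 8.27-fold above the median of the other 11 NAc libraries, with NAc sham 3 next and then NAc SNI 8, and the groups overlapped. In bulk tissue a larger number of cells of a type and more RNA per cell cannot be told apart.

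Ptgds had by far the highest level per length of the 9 in every group. Its values were 76.0, 249, 65.3, 88.6, 62.4 and 78.9 RPKM in NAc SNI libraries 7 to 12 and 52.2, 51.9, 212, 687, 141 and 69.7 RPKM in NAc sham libraries 1 to 6. NAc sham 4 was 9.04-fold above the median of the other 11. Here NAc SNI 8 came next, above NAc sham 3. Igf2 had 4.34, 7.27, 4.37, 4.62, 4.06 and 4.18 RPKM in NAc SNI libraries and 3.57, 4.84, 10.4, 23.9, 5.17 and 4.43 in NAc sham libraries, again with NAc sham 4 at the top, followed by NAc sham 3 and NAc SNI 8. Serping1, the complement inhibitor, had 1.41, 2.36, 1.18, 1.27, 1.21 and 1.12 RPKM in NAc SNI libraries and 1.10, 1.46, 3.15, 10.6, 1.56 and 0.988 in NAc sham libraries. The fold of NAc sham 4 over the median of the other 11 was 5.39 for Igf2 and 8.40 for Serping1.

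Among the matrix genes, Dcn had 2.10, 4.62, 2.32, 2.10, 1.85 and 1.51 RPKM in NAc SNI libraries 7 to 12, against 1.76, 2.63, 5.53, 14.997, 2.27 and 2.04 in NAc sham libraries 1 to 6. Aebp1 had 1.74, 2.89, 1.72, 2.07, 1.79 and 1.20 RPKM in NAc SNI libraries and 1.44, 1.84, 3.70, 10.7, 2.24 and 1.99 in NAc sham libraries. Islr had 1.93, 3.61, 2.31, 2.97, 2.52 and 1.62 RPKM in NAc SNI libraries and 1.58, 2.16, 4.31, 10.2, 2.34 and 2.19 in NAc sham libraries. In all 3, NAc sham 4, NAc sham 3 and NAc SNI 8 were the highest libraries in that order, and the fold of NAc sham 4 over the median of the other 11 was 7.14 for Dcn, 5.82 for Aebp1 and 4.41 for Islr.

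Fbn1 and Postn had another profile. Fbn1 had 0.669, 0.758, 0.601, 0.768, 0.830 and 0.344 RPKM in NAc SNI libraries, against 0.927, 1.22, 1.06, 1.24, 0.923 and 0.832 in NAc sham libraries. Every NAc SNI library lay below every NAc sham library, NAc SNI 12 was the lowest, and NAc sham 4 was only 1.02-fold above the next library, NAc sham 2. Postn had 0.596, 0.583, 0.501, 0.464, 0.434 and 0.353 RPKM in NAc SNI libraries and 0.529, 0.606, 0.541, 0.798, 0.409 and 0.638 in NAc sham libraries. NAc sham 4 was the highest, 1.51-fold above the median of the other 11, and the groups overlapped.

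Other genes were set beside the members in NAc sham 4. Of the 15202 genes that averaged 0.5 RPKM or more in NAc and had a symbol of their own, 37 were at least 2-fold above every other NAc library there, on the RPKM + 0.5 scale. The same count was 0 to 11 in each of the other 11 NAc libraries and 0 to 14 in the other 35 libraries of the series, each against its own region. The 37 held 7 members, 14 genes of a list of other fibroblast and meningeal genes and 4 genes of mural and smooth muscle cells, while 9 were in none of the lists. Values of single NAc libraries chose the members, and the lists were chosen with earlier results known. These counts follow in part from that choice and are a description. The average used as the filter included NAc sham 4, so a gene could pass through that library alone. Fmod (fibromodulin, a collagen-binding proteoglycan) had 17.04 RPKM in NAc sham 4 and at most 5.22 in another NAc library, and Mgp (matrix Gla protein) 62.3 and at most 28.9. Chosen after their values were seen, Acta2 (smooth muscle actin) had 25.5 RPKM in NAc sham 4 and at most 4.50 elsewhere in NAc, Myh11 (smooth muscle myosin) 6.85 and at most 1.56, and Cd74, the invariant chain of MHC class II, 16.8 and at most 4.61.

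**Figure D2:**
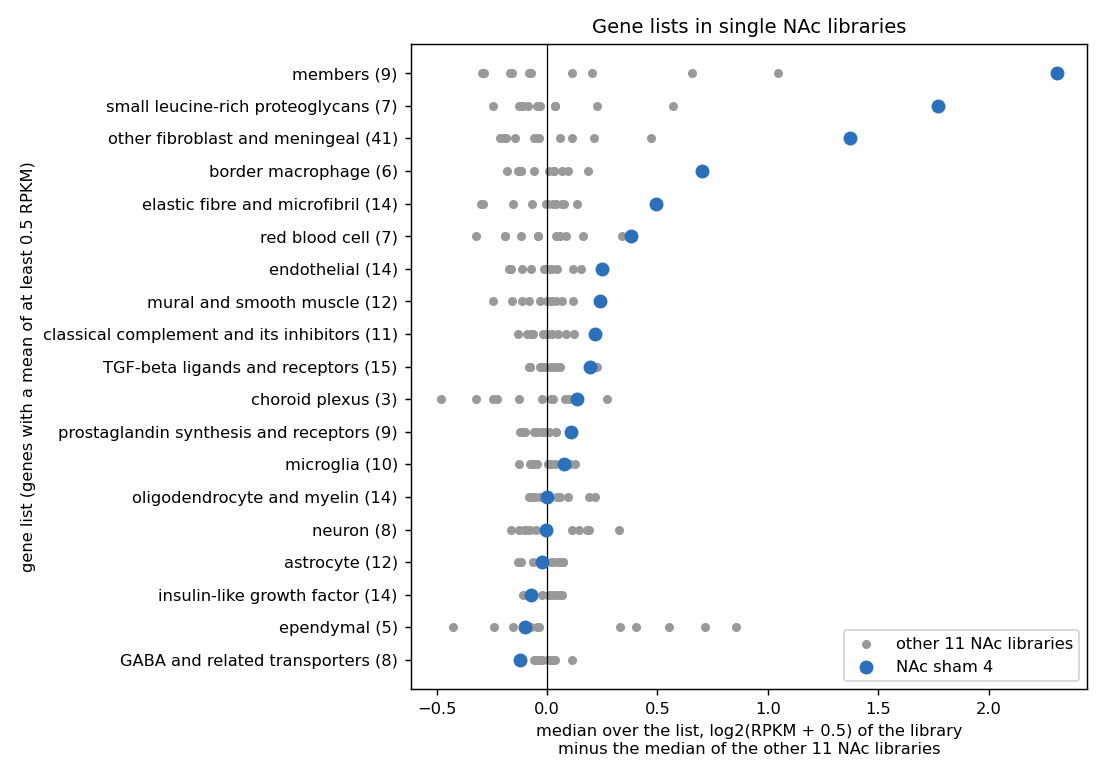
Median over each gene list of log2(RPKM + 0.5) in a library minus the median of the other 11 NAc libraries, with NAc sham 4 in blue and the other 11 in grey, and the number of genes in parentheses. The members (2.31), small leucine-rich proteoglycans (1.77), other fibroblast and meningeal genes (1.37) and border macrophage genes (0.70) lie apart in NAc sham 4, and the neuron, astrocyte and myelin lists lie near 0. The proteoglycan list and the fibroblast and meningeal list share genes. The level filter included NAc sham 4, so that some genes of both lists entered only through it.

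Over whole lists, all 41 other fibroblast and meningeal genes that passed the level filter (of 57 in the table) were above the median of the other 11 libraries in NAc sham 4, 29 of them at least 2-fold, with a median log2 difference of 1.37. The same held for all 7 small leucine-rich proteoglycans (median 1.77), the family of Dcn, and for all 6 markers of border macrophages, which live along the meninges and vessels (median 0.70, none at 2-fold). The proteoglycan list shares genes, such as Fmod and Bgn (biglycan), with the fibroblast and meningeal list. Those lists are therefore not independent, here and in the comparisons below. The lists were chosen with earlier results of these data known. The level filter included NAc sham 4, and 36 of the fibroblast and meningeal genes and 6 of the proteoglycans passed without it. The others passed only through that library, so that their place above the median was fixed in advance. Of 12 mural and smooth muscle genes 10 were above, 5 at least 2-fold, with a median of 0.24, and of 14 endothelial genes 13 were above with none at 2-fold (median 0.25). All 7 red blood cell genes were above, none at 2-fold, with a median of 0.38, the highest of the 12 NAc libraries, and NAc SNI 10 came next at 0.34. The part of blood or vessels in the members' levels was not tested. Elastic fibre and microfibril genes, the family of Fbn1, had a median of 0.49 over 14 genes. The lists of the brain's own cells differed little, with medians of -0.02 over 12 astrocyte genes, 0.08 over 10 microglia genes, -0.00024 over 14 myelin genes and -0.0035 over 8 neuron genes. The partners of Slc6a13 in GABA handling had a median of -0.12 over 8 genes, and those of Ptgds in prostaglandin synthesis and reception 0.11 over 9 genes. Genes of the choroid plexus, a tissue that also makes Ptgds and Igf2, had a median of 0.13 over the 3 that passed the filter.

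NAc sham 3 had the same lists higher, by less, with a median log2 difference of 1.05 over the members, 0.47 over the other fibroblast and meningeal genes and 0.57 over the small leucine-rich proteoglycans. NAc SNI 8 had 0.66, 0.21 and 0.23. In NAc SNI 8 the summed level of the choroid plexus list was 41.2 RPKM, the highest of the NAc libraries, against a median of 13.02 in NAc SNI. Whether that tissue has a part in the members' levels in NAc SNI 8 was not tested.

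In the comparison of SNI with sham in NAc, a region of the reward system, all 9 members had a negative log2 fold change with all 12 libraries. These values chose members and are given as a description. The median over the 9 was -0.50, beside -0.02 over all genes tested, and single values were -0.69 (SE 0.41) for Slc6a13, -0.47 (SE 0.58) for Ptgds, -0.50 (SE 0.37) for Igf2, -0.52 (SE 0.41) for Serping1, -0.56 (SE 0.42) for Dcn, -0.52 (SE 0.35) for Aebp1, -0.30 (SE 0.34) for Islr, -0.41 (SE 0.11) for Fbn1 and -0.13 (SE 0.09) for Postn. Without NAc sham 4 the median over the 9 was -0.16, and 7 of 9 were below 0, with Islr at 0.01 and Ptgds at 0.02. Fbn1, at -0.37 without that library, was the member whose value moved least. With limma 0 of 15264 genes were called at an adjusted p under 0.05 (0%), with 660 at an unadjusted p under 0.05, and voom on the recovered reads called 0 with 621 unadjusted. Fbn1 was the 1 member whose groups did not overlap, which held for 20 of all genes tested (0.131%).

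The other fibroblast and meningeal genes had the same step. Of the 41 tested 37 were below 0, with a median of -0.24, and without NAc sham 4 this was 24 of 36 with a median of -0.07. All 7 small leucine-rich proteoglycans, some of them also on the fibroblast and meningeal list, were below 0 (median -0.37). The elastic fibre and microfibril list had a median of -0.06 over 14 genes, which became 0.05 without NAc sham 4. The full counts of the fibroblast and proteoglycan lists include genes that passed the level filter only through NAc sham 4. None of these genes was called.

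**Figure D3:**
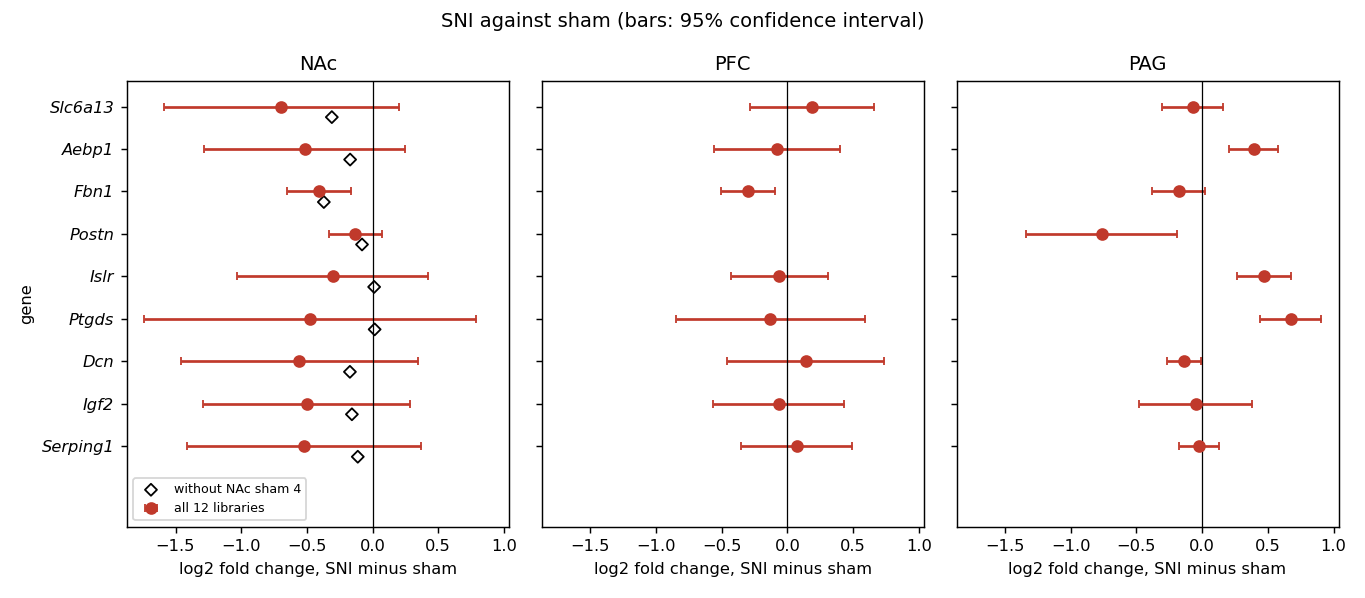
Log2 fold change of SNI minus sham for each gene in NAc, PFC and PAG on log2(RPKM + 0.5), with 95% confidence intervals over all 12 libraries of a region, and open diamonds for NAc values without NAc sham 4. Postn has no value in PFC, where it was below the level filter; in NAc the diamonds of Islr (0.01) and Ptgds (0.02) lie at 0, and in PAG Ptgds is at 0.67 and Postn at -0.77.

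In PFC no member passed the limma test of SNI against sham, and these values did not choose the members. Fbn1 had the largest difference, with 1.08, 1.13, 0.854, 1.15, 1.21 and 0.691 RPKM in PFC SNI libraries 19 to 24, against 1.32, 1.26, 1.40, 1.65, 1.304 and 1.23 in PFC sham libraries 13 to 18. As in NAc, every SNI library lay below every sham library, with means of 1.02 ± 0.202 in PFC SNI and 1.36 ± 0.152 in PFC sham (SD, n = 6). The log2 fold change was -0.30 (95% interval -0.50 to -0.10), and the limma adjusted p over all genes was 0.999973. Groups that do not overlap were found in 13 of 15192 genes in PFC (0.0856%).

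Of the 15192 genes, 0 were called in PFC (0%), with 220 at an unadjusted p under 0.05, and voom called 0 with 205 unadjusted. The other 7 members tested lay between -0.13 (Ptgds) and 0.19 (Slc6a13), each with the same limma adjusted p of 0.999973. Their intervals were wide, for example -0.28 to 0.66 for Slc6a13, -0.85 to 0.59 for Ptgds and -0.46 to 0.73 for Dcn. Postn had 0.141 to 0.284 RPKM in PFC SNI and 0.160 to 0.214 in PFC sham, below the level of 0.5 RPKM that the test required. The other fibroblast and meningeal list had 24 genes above 0 and 17 below, with a median of 0.03 and none called.

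The spread behind these intervals was shared by members. Dcn had 2.98, 8.97, 4.56, 3.82, 2.97 and 5.94 RPKM in PFC SNI libraries 19 to 24 and 2.13, 5.60, 5.35, 6.03, 3.46 and 3.23 in PFC sham libraries 13 to 18. Slc6a13 had 2.22, 4.64, 2.79, 2.86, 2.72 and 4.53 RPKM in PFC SNI libraries and 1.36, 3.25, 3.62, 3.84, 3.02 and 2.12 in PFC sham libraries. PFC SNI 20 and PFC sham 16 were the highest of their groups for both, and PFC sham 13 the lowest of its group. Acta2 was also highest in those libraries, at 8.01 RPKM in PFC SNI 20 and 6.85 in PFC sham 16, and lowest in PFC sham 13, at 2.14. Ptgds had 29.5, 87.6, 57.0, 59.5, 57.5 and 130 RPKM in PFC SNI libraries and 38.0, 56.9, 81.8, 133, 77.0 and 63.0 in PFC sham libraries. Igf2 had 3.55, 7.23, 4.11, 4.14, 3.15 and 5.47 RPKM in PFC SNI libraries and 2.22, 5.34, 6.34, 6.52, 4.57 and 4.45 in PFC sham libraries. For both, PFC sham 13 was the lowest and PFC sham 16 the highest of its group, and the groups overlapped. Aebp1 had 1.001, 3.30, 1.89, 1.58, 1.69 and 2.16 RPKM in PFC SNI libraries and 1.003, 1.68, 2.67, 2.89, 2.02 and 2.05 in PFC sham libraries. Serping1 had 1.21, 2.64, 1.57, 1.43, 1.14 and 2.14 RPKM in PFC SNI libraries and 0.888, 1.37, 1.79, 2.63, 1.46 and 1.38 in PFC sham libraries, with the same libraries at the top of each group. Islr had 1.89, 3.90, 3.30, 3.57, 3.54 and 3.95 RPKM in PFC SNI libraries, where PFC SNI 19 stood low, and 2.45, 3.27, 3.82, 5.28, 3.40 and 3.00 in PFC sham libraries. The summed level of the myelin list, whose cells also express Ptgds, ran from 272 RPKM in PFC SNI 19 to 1285 in PFC SNI 20. The part of either in the members' spread was not tested.

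**Figure D4:**
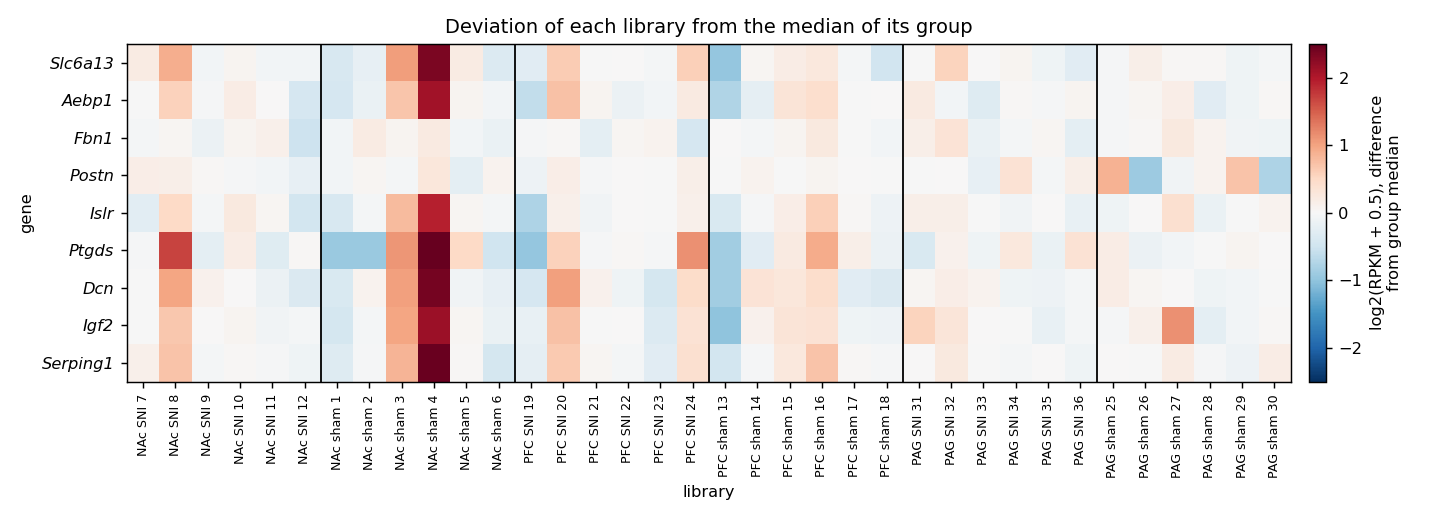
Deviation of each library from the median of its group on log2(RPKM + 0.5), with genes in rows, libraries in columns, red above and blue below the median. NAc sham 4 is red in 7 rows and PFC sham 13 is blue in the same rows, while Fbn1 and Postn stay pale there; in PAG the strong cells are those of Postn and of Igf2 in PAG sham 27.

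In PAG the members did not move as a group. Ptgds, Islr and Aebp1 were higher in PAG SNI, Postn was lower, and the other members differed by at most 0.18 on the log2 scale. The comparison chose members, so that these are descriptions. Ptgds had 129, 183, 155, 202, 149 and 216 RPKM in PAG SNI libraries 31 to 36, against 120, 95.9, 101, 106, 110 and 106 in PAG sham libraries 25 to 30. Every PAG SNI library was above every PAG sham library, as for 16.9% of all genes tested in PAG, and the log2 fold change was 0.67 (SE 0.11).

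Aebp1 had 6.03, 4.87, 3.99, 5.26, 4.96 and 5.41 RPKM in PAG SNI libraries, against 3.75, 3.97, 4.33, 3.05, 3.50 and 3.93 in PAG sham libraries, a log2 fold change of 0.39 (SE 0.09). Islr had 1.57, 1.58, 1.37, 1.26, 1.39 and 1.15 RPKM in PAG SNI libraries and 0.723, 0.830, 1.26, 0.672, 0.817 and 0.916 in PAG sham libraries, a log2 fold change of 0.47 (SE 0.10). In both, the groups overlapped only through the highest sham library, PAG sham 27. Dcn (-0.14, SE 0.06), Fbn1 (-0.18, SE 0.09), Slc6a13 (-0.07, SE 0.11), Igf2 (-0.05, SE 0.20) and Serping1 (-0.03, SE 0.07) lay slightly below 0. The groups of all 5 overlapped.

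PAG SNI 32 was the highest PAG SNI library for 4 of these 5. Dcn had 7.20, 7.83, 7.46, 6.43, 6.29 and 6.74 RPKM in PAG SNI libraries and 8.77, 7.95, 7.72, 7.08, 7.31 and 7.64 in PAG sham libraries. Serping1 had 2.13, 2.57, 2.08, 2.02, 2.12 and 1.92 RPKM in PAG SNI libraries and 2.12, 2.09, 2.50, 2.05, 1.90 and 2.48 in PAG sham libraries. Slc6a13 had 1.35, 2.21, 1.35, 1.43, 1.21 and 1.03 RPKM in PAG SNI libraries and 1.46, 1.70, 1.54, 1.53, 1.34 and 1.42 in PAG sham libraries. For Slc6a13, PAG SNI 32 stood apart from the other PAG SNI libraries. Fbn1 had 2.47, 2.92, 1.91, 2.10, 2.30 and 1.77 RPKM in PAG SNI libraries and 2.46, 2.59, 3.10, 2.70, 2.36 and 2.31 in PAG sham libraries.

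Of the 9 members 4 were past an adjusted p of 0.05 in limma, 3 higher and 1 lower, where 35.2% of all 15592 genes tested in PAG were called, 21.5% higher and 13.7% lower. Calls in PAG followed the GC content of the gene. Of 3382 genes with at least 55% GC, 2293 were called higher and 14 lower, and of 967 genes under 40% GC, 3 were called higher and 275 lower. Ptgds (56.4% GC), Islr (56.0%) and Aebp1 (58.3%) are in the first class and Postn (36.3%) and Dcn (37.4%) in the second, but Igf2 (55.8%) is in the first class too. With the GC trend removed, 2019 genes and 1 member, Ptgds, were called, and the log2 fold changes were 0.27 for Islr, 0.08 for Aebp1 and -0.66 for Postn.

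Related lists in PAG were counted in the same way and stand beside the same GC trend. Of all genes tested 21.5% were called higher and 13.7% lower, and with the GC trend removed 1201 genes were called higher and 818 lower. Of 12 elastic fibre and microfibril genes 9 were called higher with SNI and none lower, and all 12 were above 0 (median log2 fold change 0.38). Among these were Ltbp4, which binds latent TGF-beta, at 4.24 ± 0.530 RPKM in PAG SNI and 2.15 ± 0.3004 in PAG sham (SD, n = 6), and Eln (elastin), at 1.83 ± 0.358 and 0.886 ± 0.244 RPKM. With the GC trend removed 5 of the 12 were called, all higher. Of 39 other fibroblast and meningeal genes 9 were called higher and 3 lower, with 32 above 0 and 7 below (median 0.06). With the GC trend removed 2 were called higher and none lower. Mgp had 11.4 ± 3.05 RPKM in PAG SNI and 7.78 ± 1.301 in PAG sham, and Vim (vimentin) 16.2 ± 1.503 and 12.7 ± 0.783. Spp1 (osteopontin) had 23.8 ± 5.20 RPKM in PAG SNI, against 37.3 ± 13.4 in PAG sham. These means of Mgp, Vim and Spp1 are without removal of the GC trend. No small leucine-rich proteoglycan of the 6 tested beside Dcn was called.

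Postn in PAG was set by some sham libraries. It had 0.879, 0.889, 0.708, 1.27, 0.842 and 1.03 RPKM in PAG SNI libraries 31 to 36, against 3.97, 0.800, 1.80, 2.10, 3.54 and 0.938 in PAG sham libraries 25 to 30. PAG sham 25 and 29 were highest, PAG sham 26 and 30 lay within the range of the PAG SNI libraries, and the log2 fold change was -0.77 (SE 0.27). Leaving out any 1 of PAG SNI 31, 32, 33, 35 and 36 or PAG sham 25, 27, 28 and 29 ended its call, with log2 fold changes of -0.95 to -0.59 over all 12 such fits.

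Over the 12 PAG libraries, centred by group, the gene whose log2 level was most like that of Postn among 15526 was Cartpt, a neuropeptide precursor, with r = 0.971 and rho = 0.909. Cartpt had 65.1, 81.0, 58.1, 122, 72.9 and 117 RPKM in PAG SNI libraries and 359, 64.2, 161, 138, 327 and 60.2 in PAG sham libraries. PAG sham 25 and 29 were the highest for both genes. Cck (cholecystokinin), another neuropeptide gene, followed with r = 0.918 and rho = 0.762, and Spp1 had r = 0.851. The other 8 members had r of -0.41 to 0.44 with Postn. These genes were picked for their likeness, and the libraries are what the points share.

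**Figure D5:**
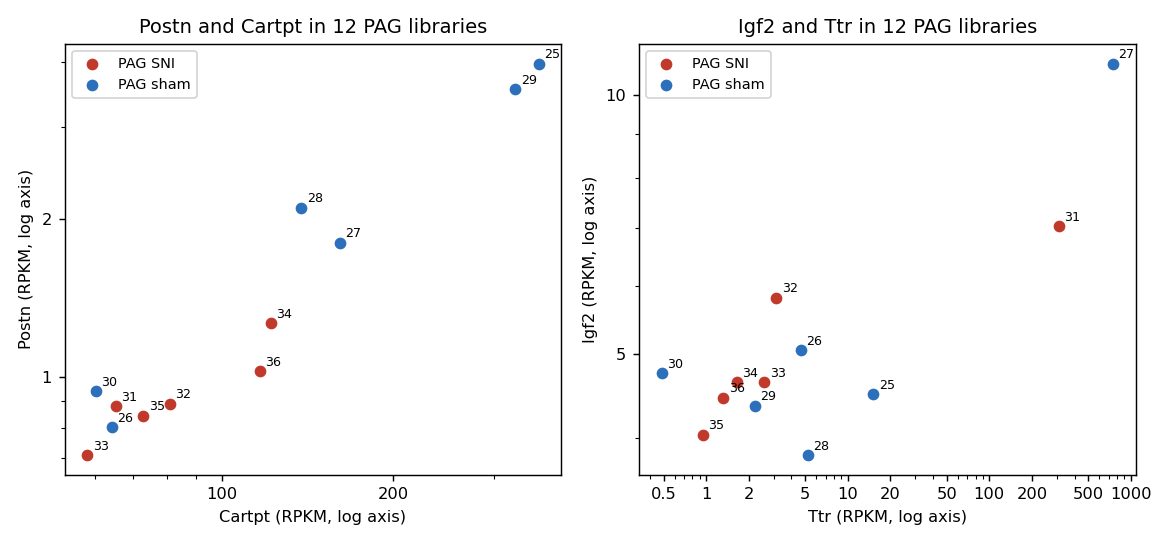
RPKM of Postn against Cartpt and of Igf2 against Ttr in the 12 PAG libraries on log axes, with PAG SNI in red, PAG sham in blue and library numbers beside the points. PAG sham 25 and 29 are highest for Postn and Cartpt, and PAG SNI 31 and PAG sham 27 are highest of their groups for Igf2 and Ttr.

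Igf2 in PAG rested on other libraries. It had 7.04, 5.82, 4.64, 4.64, 4.03 and 4.45 RPKM in PAG SNI libraries and 4.49, 5.05, 10.9, 3.82, 4.36 and 4.75 in PAG sham libraries. PAG SNI 31 and PAG sham 27 were the highest of their groups, and both carried choroid plexus transcripts. Ttr (transthyretin), the most abundant gene of that list, had 308 RPKM in PAG SNI 31 and 748 in PAG sham 27, and 0.484 to 15.2 in the other 10. The summed list had a median of 17.2 RPKM in PAG SNI and 20.4 in PAG sham. The genes most like Igf2 over the PAG libraries, centred by group, were the junction gene Cldn1 (r = 0.955, rho = 0.713), the retinol dehydrogenase gene Rdh5 (0.954 and 0.825) and Slc13a4 (0.944 and 0.650), a sulphate transporter of choroid plexus and meninges. Without PAG SNI 31 and PAG sham 27 the log2 fold change of Igf2 was 0.06, against -0.05 with all 12. Islr followed Igf2 with r = 0.891 in PAG. The part of choroid plexus tissue in the levels of Igf2 and Islr was not tested.

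Between regions, the members were compared in sham libraries in 1 limma model of all 36 libraries, and a call needed both an adjusted p under 0.05 and at least a 2-fold difference. These contrasts did not choose the members, although they share the NAc and PAG sham libraries with the comparisons that did. Islr was higher in NAc and PFC than in PAG, with 3.79 ± 3.26 RPKM in NAc sham, 3.54 ± 0.968 in PFC sham and 0.869 ± 0.209 in PAG sham (SD, n = 6). The log2 fold change was 1.41 for NAc over PAG (limma adjusted p = 4.18e-06) and 1.54 for PFC over PAG (7.83e-07), and every NAc and PFC sham library was above every PAG sham library, as for 55.8% and 57% of all genes in either direction. Without NAc sham 4 the first was 1.09.

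Postn ran the other way, with 0.587 ± 0.130 RPKM in NAc sham, 0.179 ± 0.0222 in PFC sham and 2.19 ± 1.31 in PAG sham. These PAG sham values also enter the comparison that chose members, so the tests of Postn against PAG are not independent of that choice. PAG sham 26 and 30, at 0.800 and 0.938 RPKM, lay near the PAG SNI mean of 0.935 ± 0.192. The model shares 1 estimate of spread, although these SDs differ. Postn was lower than PAG in NAc (log2 -1.17, limma adjusted p = 8.37e-07) and in PFC (-1.84, 5.76e-11), with no overlap. Groups did not overlap for 55.8% and 57% of all genes there, in either direction. Between NAc and PAG, Postn came close to overlap, at 0.798 RPKM in NAc sham 4 and 0.800 in PAG sham 26. Its difference between NAc and PFC was 0.67 (limma adjusted p = 0.00193), under the 2-fold limit at the pseudocount of 0.5 but over it at 0.1 (1.28) and in voom (1.69), and the groups did not overlap there either, as for 34.4% of genes. Fbn1 had 1.03 ± 0.168 RPKM in NAc sham, 1.36 ± 0.152 in PFC sham and 2.59 ± 0.290 in PAG sham. It was lower in NAc than in PAG by 2.02-fold (log2 -1.01, limma adjusted p = 1.45e-10), lower in PFC than in PAG (-0.73, 1.26e-07) and lower in NAc than in PFC (-0.28, 0.0196), the last pair under the fold limit.

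Dcn had 4.87 ± 5.15 RPKM in NAc sham, 4.30 ± 1.57 in PFC sham and 7.75 ± 0.587 in PAG sham. It was lower in NAc than in PAG by 2.01-fold (log2 -1.01, limma adjusted p = 0.00491), and by more without NAc sham 4 (-1.39), and was -0.85 in PFC against PAG (0.0152). The calls of Fbn1 and Dcn between NAc and PAG lie at the fold limit and ended with median-of-ratios scaling and with a pseudocount of 1. That of Fbn1 also ended with quantile scaling (-0.97), and that of Postn with a pseudocount of 1. Aebp1 was lower in PFC than in PAG (-0.78, limma adjusted p = 0.00885, 2.05 ± 0.681 RPKM against 3.76 ± 0.440). Slc6a13 was higher in NAc (0.85, limma adjusted p = 0.0115) and in PFC (0.70, 0.0346) than in PAG, all under the fold limit. For NAc it was 0.47 without NAc sham 4, where it missed the threshold (limma adjusted p = 0.0633), and 1.04 with voom, over the fold limit.

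Ptgds, Igf2 and Serping1 did not pass the adjusted threshold between any pair of sham regions, with limma adjusted p of 0.0873 to 0.970, and their intervals were wide. That of Ptgds between NAc and PFC ran from -0.02 to 1.71 around 0.85, a difference that was 0.36 without NAc sham 4. The model shares 1 estimate of spread, which NAc sham 4 enters, so the SE of Ptgds was 0.43 for PFC against PAG too. That pair was not fitted without NAc sham 4, so how far this library widens its intervals was not tested. A missing call here does not show that regions are equal. In all, 0 members were called between NAc and PFC, where 6.85% of 15639 genes were, 3.38% higher and 3.47% lower in NAc. Between NAc and PAG 1 member was higher and 3 were lower in NAc, where 13% of genes were called, 6.59% higher and 6.42% lower. Between PFC and PAG 1 member was higher and 1 lower in PFC, where 15.1% of genes were called, 7.74% higher and 7.35% lower.

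The list of other fibroblast and meningeal genes was split by region as well. Of 40 tested, 5 were called higher and 2 lower in NAc than in PAG, with a median log2 fold change of 0.52, and without NAc sham 4 this was 3 and 3 with a median of 0.21. Between NAc and PFC 3 were called higher and 2 lower in NAc, and 0 and 2 without NAc sham 4. Between PFC and PAG 6 were called higher and 1 lower in PFC. Col6a1, a collagen VI chain, had 58.1 ± 11.3 RPKM in NAc sham, 32.95 ± 10.4 in PFC sham and 1.65 ± 0.197 in PAG sham. Nov, a secreted matrix protein also called CCN3, had 46.6 ± 5.63 RPKM in PFC sham and 1.62 ± 0.327 in PAG sham. Spp1 ran the other way, like Postn, with 4.56 ± 3.57 RPKM in NAc sham, 1.63 ± 0.653 in PFC sham and 37.3 ± 13.4 in PAG sham. Genes of this list did not all vary with the members. Col6a1 had 70.1 RPKM in NAc sham 4 and up to 102 in another NAc library. Which cells gave the levels of Col6a1, Nov and Spp1 was not tested.

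The order of the members by level per length was alike in the regions at its ends. Ptgds was first in all 6 groups, and Igf2 and Dcn held the next places except in NAc SNI, where Islr at 2.49 ± 0.721 RPKM stood beside Dcn at 2.42 ± 1.12. Postn was last in NAc, PFC and PAG SNI. In PAG sham it stood at 2.19 ± 1.31 RPKM beside Serping1 at 2.19 ± 0.245, and Islr was last at 0.869 ± 0.209. In PFC sham Igf2 (4.91 ± 1.57), Dcn (4.30 ± 1.57) and Islr (3.54 ± 0.968) lay within each other's spread, as did Igf2 (5.10 ± 1.12) and Aebp1 (5.09 ± 0.678) in PAG SNI.

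How far the members varied together differed by region, and is given as a description over libraries that share their dissection and depth. Over the 12 NAc libraries, centred by group, 7 members had r of 0.932 (Ptgds) to 0.989 (Igf2) with the mean of the other 8, against 0.460 for Fbn1 and 0.581 for Postn. Without NAc sham 4 the 7 had 0.854 to 0.965, Fbn1 0.364 and Postn 0.201. In PFC the same 7 had 0.854 (Islr) to 0.944 (Serping1), Postn 0.769 and Fbn1 -0.00087. In PAG the 9 had -0.155 to 0.572. The spread itself was large for the 7, with a coefficient of variation of 86.0% (Islr) to 121% (Ptgds) in NAc sham, above that of at least 99.2% of genes, and 16.2% for Fbn1. Without NAc sham 4 the 7 had 38.6% (Aebp1) to 66.5% (Ptgds), above that of at least 95.2% of genes, and Fbn1 15.1%. Values of single NAc libraries chose the members, so their r, spread and rank among genes in NAc follow in part from that choice. They are no test of the members.

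The 10 genes most like the mean of the 9 members over the 36 libraries, out of 15567, were Slc22a6, Fmod, Gjb2, Fgl2, Aldh1a2, Slc13a3, Slc13a4, Colec12, Bgn and Pcolce. Slc22a6, an organic anion transporter, came first with r = 0.961 and rho = 0.879, and r = 0.916 without NAc sham 4. It had 4.44 RPKM in NAc sham 4 and a median of 0.294 in the other 11 NAc libraries. Fmod followed (0.953, and 0.899 without NAc sham 4), then Gjb2, a gap junction protein of leptomeningeal cells (0.951 and 0.895). The 10th, Pcolce, an enhancer of procollagen processing, had 0.925 and 0.848. The same 10 genes led without NAc sham 4, but the level filter of 0.5 RPKM was not set again without it. Fgl2 averaged 0.558 RPKM over the 36 libraries, with 3.21 in NAc sham 4, and passed the filter only through that library. Of the 10, 8 were on the fibroblast and meningeal list, which held 57 genes of the table, and Fgl2 and Colec12 were in no list. That list was chosen with earlier results of these data known, so the overlap is a description.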

How the data were processed

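RNA from NAc, PFC and PAG was sequenced in 36 libraries. The authors deposited RPKM values with gene lengths. TopHat2, HTSeq and mm10 are named in the submitters' processing notes, and the strand setting is not given in the sources used here. RPKM times length and depth gave whole reads for 100% of values (tolerance 0.001), which recovered the depth of 27.6 to 64.9 M reads. Annotation and GC content came from GENCODE M21 (97.9% of identifiers matched). The members, the gene lists and the motifs were chosen with earlier results of these data known. A gene of the red blood cell list is not reported here and was left out of that list.

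The tests were run in limma 3.58.1 under R 4.3.3 on log2(RPKM + 0.5) with a mean-variance trend, on genes averaging 0.5 RPKM or more, two-sided, with Benjamini-Hochberg adjustment over all genes and a threshold of 0.05. SNI was compared with sham over the 12 libraries of each region. Region comparisons used 1 model of 36 libraries and a fold of at least 2. The pseudocount shrinks the fold changes of genes at low levels. Named genes were the members, the most abundant or most changed genes of each list and the 10 most similar genes. Genes outside this rule, Acta2, Myh11, Cd74, Cartpt, Cck, Cldn1, Rdh5, Col1a1, Foxc1, Drd2, Slc17a7 and Tph2, were chosen after their values were seen or as tissue markers. Alternatives were other pseudocounts (0.1, 1), filters (none, 2 RPKM) and scalings, voom on the recovered reads, 1 model for all libraries, removal of the GC trend (loess, span 0.3) and leaving out single libraries. Leaving out PAG SNI 31 and PAG sham 27 together was added after seeing the data. Libraries are numbered 1 to 36 across the groups and the labels do not tie them to mice, so none were paired. Whether libraries of different regions came from the same mice is not known, and the region comparisons took them as independent.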

Additional observations from a re-analysis of the deposited data

Results flagged for a closer look

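In each group of 6 libraries the highest and lowest value of each member was set against the rest by Dixon's criterion, the gap to the nearest other value divided by the range. Of the 16 values that passed, 12 were in NAc, where values of single libraries chose the members, so that their number is a description. In PFC and PAG 4 passed in 36 pairs of member and group. The criterion passes about 1 in 20 independent groups of normal values by chance. These pairs share libraries, and the PAG comparison chose members, so the 4 cannot be read against that rate. NAc sham 4 was the outlying library for 7 members, at 13.1 RPKM for Slc6a13, 10.7 for Aebp1, 10.2 for Islr, 687 for Ptgds, 14.997 for Dcn, 23.9 for Igf2 and 10.6 for Serping1. NAc SNI 8 was outlying in its own group for 5 of the same genes, at 3.23 RPKM for Slc6a13, 249 for Ptgds, 4.62 for Dcn, 7.27 for Igf2 and 2.36 for Serping1.

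PAG SNI 32 stood high for Slc6a13 (2.21 RPKM) and Serping1 (2.57 RPKM). PAG sham 27 stood high for Igf2 (10.9 RPKM), and PFC SNI 19 stood low for Islr (1.89 RPKM). No value of Fbn1 or Postn was outlying in any group.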

How the results depend on the processing

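No paired analysis was possible because the labels do not tie libraries to mice. Genes called in NAc numbered 0, 1 with the GC trend removed, and 0 to 3 without 1 library (3 without NAc SNI 7). In PAG 5495 genes were called, 3337 with all libraries in 1 model and 2019 with the GC trend removed, and the split of 3360 higher and 2135 lower became 2924 and 4019 with quantile scaling. Members called in PAG numbered 4, against 2 with a filter of 2 RPKM (6 members tested), 1 with all libraries in 1 model, 1 with the GC trend removed, 6 with quantile scaling and 3 to 5 without 1 library. Members called between sham NAc and PFC numbered 0, and 1 with a pseudocount of 0.1 and with voom. Between sham NAc and PAG they numbered 4, but 1 with a pseudocount of 1, 2 with a filter of 2 RPKM and 2 with median-of-ratios scaling, and 5 with voom, and between sham PFC and PAG 2, but 1 with that filter. The fewer members tested bear on the filter, and for the others the cause was not tested.

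These log2 fold changes turned sign. Without NAc sham 4, SNI against sham in NAc gave 0.012 for Islr and 0.016 for Ptgds (down to -0.459 and -0.766 without NAc sham 1 and NAc SNI 8), NAc against PFC gave -0.23 for Slc6a13, and NAc against PAG gave -0.40 for Serping1 and -0.25 for Ptgds. Serping1 there was also -0.041 with a pseudocount of 0.1 and -0.020 with voom. Leaving out 1 PFC library gave ranges across 0, of -0.045 to 0.24 for Dcn, -0.041 to 0.20 for Serping1, -0.25 to 0.023 for Igf2, -0.22 to 0.053 for Aebp1, -0.15 to 0.071 for Islr and -0.34 to 0.088 for Ptgds. In PAG these ranges were -0.14 to 0.15 for Igf2 and -0.071 to 0.0059 for Serping1, and without PAG SNI 31 and PAG sham 27 together the values were 0.059 and 0.0066. No library left out changed the sign of Fbn1 or Slc6a13 in a comparison of SNI with sham.

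Counting error limits Postn in PFC most, with 48 reads in its lowest library.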
